A study of Mus musculus with 15 samples.

Results

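The cerebellum (Ce) and the striatum (St) of mice from a control line (Co) were compared by RNA-seq, with 4 CeCo samples against 4 StCo samples out of the 15 samples of the series. The 8 samples were chosen by their labels alone, and no expression value was used. The Co mice came from 1 control line of a breeding experiment on the Hsd:ICR strain, in which breeders were picked at random within families, and siblings were avoided among the mice studied. They were males, 6 weeks old by the labels, while the methods of the study give an age 1 week higher. They were caged singly with a wheel, and each region was taken whole on day 7, in the active dark hours, so that both regions came from mice that had been running. The other 7 samples (4 CeHi and 3 StHi) came from the line bred for high voluntary running (Hi) and were used for the spread of each gene and for a comparison of the region difference between lines. A region difference in the Co line describes 1 outbred line under wheel access, and mice without a wheel were not analysed here. Which line a sample belongs to was taken from its label alone, and no value in the files checks it, so a direction between the lines would turn, and the Co samples would be those of the Hi line, if the labels of the lines were exchanged.

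The Ce is a hindbrain structure whose cortex holds very many small glutamatergic granule cells, the GABAergic Purkinje cells that form the output of that cortex, inhibitory interneurons and Bergmann glia. The St is a forebrain nucleus built almost wholly of GABAergic medium spiny neurons, which receive dopamine from the midbrain and glutamate from the cortex and thalamus, with sparse cholinergic and GABAergic interneurons. Both regions take part in the control of movement, the Ce in its timing and coordination and the St in the selection of actions and in reward.

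The deposited values are normalized counts, that is, fragments per gene scaled by a factor for each sample, with no correction for gene length. They corresponded to 42676158 to 45173614 fragments in the CeCo samples and 35379430 to 47285497 in the StCo samples, and 1 fragment was worth 0.853 to 1.23 normalized counts. Between 19028 and 19511 genes had a value above 0 in a sample. The correlation of log2 values across genes was 0.991 to 0.995 between samples of a region and 0.815 to 0.825 between regions, and the first principal component of the 8 samples, which separated Ce from St, carried 93.9% of the variance. The test took in the 15213 of 26628 genes that reached a CPM of 1 in 3 samples. A log2(fold change) is CeCo minus StCo throughout, so that positive values are higher in Ce, and a gene is called at a false discovery rate (FDR)-adjusted P-value under 0.05 in the limma fit. Means are given with the SD over the 4 samples of a region, and log2(fold change) with its standard error (SE).

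Most genes differed between the regions. Of the 15213 genes tested 74.8% were called, 5790 genes (38.1%) higher in Ce and 5593 genes (36.8%) higher in St. Many of these differences were small, and 4288 called genes had a log2(fold change) under 0.5 in size. A called difference over 1 on the log2 scale was found for 3816 genes (25.1%), of which 1554 (10.2% of the genes tested) were higher in Ce and 2262 (14.9%) were higher in St. Among the largest differences the St side was longer, with 239 called genes higher in St by over 5 on the log2 scale against 93 higher in Ce. The values of the 4 CeCo and 4 StCo samples did not overlap for 10633 genes (69.9%). When the difference itself was tested against a log2 value of 1, 1040 genes were higher in Ce and 1739 higher in St. The median log2(fold change) over all genes tested was 0.02. These shares are the background against which the counts of each gene group are to be read. The plot of region means shows the 2 arms of region-specific genes on either side of the diagonal.

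**Figure D1:**
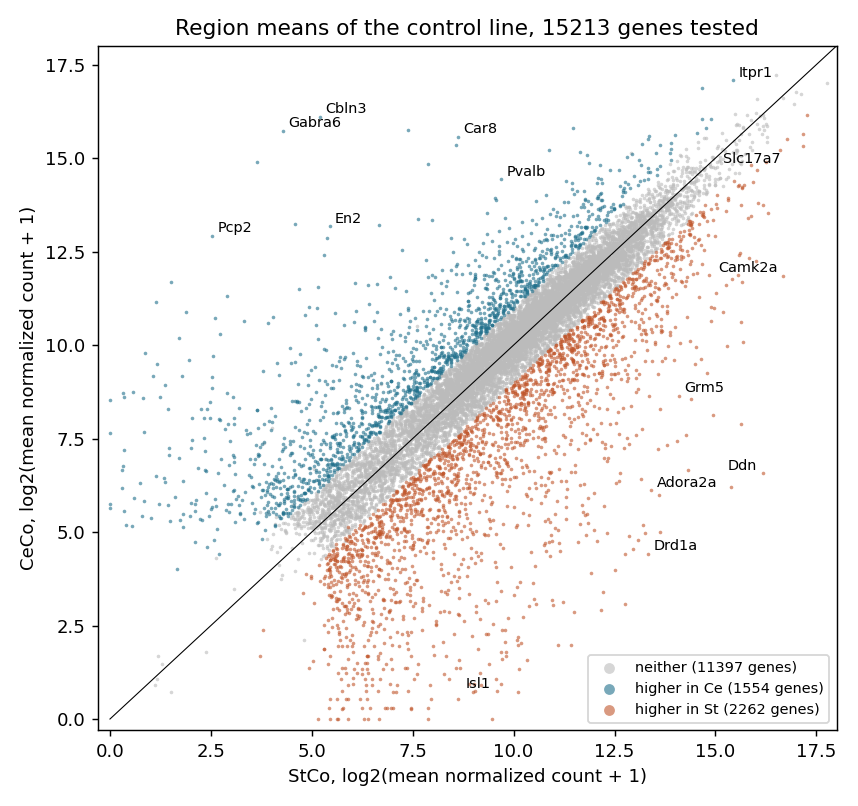
Mean of the 4 StCo samples (x axis) against the mean of the 4 CeCo samples (y axis), both as log2(normalized count + 1), for the 15213 genes tested. Points in colour are the 1554 genes called higher in Ce and the 2262 called higher in St by over 1 on the log2 scale, and the line marks equal means. Cbln3, Gabra6 and Pcp2 lie at the upper left and Ddn, Adora2a and Drd1a at the lower right, far from the line.

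Genes of the granule and Purkinje cells led the differences toward the Ce. Gabra6, the GABA-A receptor subunit of granule cells, had normalized counts of 52748, 58312, 52597 and 53915 in the CeCo samples and of 19.7, 19.8, 10.5 and 23.8 in the StCo samples. It was 2948-fold higher in Ce, with a log2(fold change) of 11.50 (SE 0.20, adjusted P-value 2.9e-15). Fat2, a large protocadherin of granule cell axons, had 29934, 32729, 29953 and 29216 in CeCo and 16.05, 12.9, 5.25 and 11.9 in StCo. Cbln3, a cerebellin that granule cells secrete, had 71285, 77324, 63403 and 71300.2 against 45.7, 36.6, 26.3 and 35.7. All CeCo samples of each of these genes were orders of magnitude above all StCo samples. The Purkinje cell gene Pcp2 had 7267, 8129, 7003 and 8489 in CeCo and 3.702, 6.92, 1.05 and 7.31 in StCo, a log2(fold change) of 10.58 (SE 0.35). Ppp1r17, a phosphatase inhibitor of Purkinje cells, had 9710.0 ± 942 against 23.2 ± 9.93, and Lhx1, a homeobox factor of the same cells, had 1684 ± 139 against 5.096 ± 4.29. The other genes among the 10 largest differences with a CeCo mean of at least 1000 were Crtam (2755 to 3977 in CeCo), Cnpy1 (2086 to 2428), Dao (1650.3 to 2300.1) and Nrk (1047 to 1351). Dao encodes D-amino acid oxidase, which degrades D-serine. Crtam, Cnpy1 and Dao were at the detection floor of 3 fragments or fewer in every StCo sample, and they were at least 1049-fold, 723-fold and 606-fold higher in Ce.

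Toward the St the largest differences included those of forebrain transcription factors and of genes of medium spiny neurons. Ddn, Crym, Zfp831 and Gm11549 were listed in neither group, and which cells they came from was not tested. Ddn, which encodes the postsynaptic protein dendrin, had 72312, 76192, 67642 and 78138 in StCo against 119, 92.7, 82.8 and 81.04 in CeCo, a log2(fold change) of -9.61 (SE 0.34, adjusted P-value 4.4e-11). Drd1a (Drd1), the dopamine receptor of the direct pathway, had 11201, 8819.6, 8773 and 12398 in StCo and 27.96, 19.6, 16.2 and 17.8 in CeCo, and it was 505-fold higher in St. Within StCo, replicates 0 and 3 were above replicates 1 and 2 for Drd1a. Crym, a thyroid hormone binding protein, had 4617 ± 915 against 6.54 ± 3.16. Six3 (2430.2 to 2941 in StCo and 1.78 to 3.73 in CeCo), Zfp831 (1114 to 1485 and 0.892 to 4.45), the noncoding Dlx6as1 (2101 to 2341 and 1.78 to 4.66) and Gm11549 (883 to 1242 and 0 to 0.892) were also among the 10 largest. Dlx6as1 overlaps Dlx6 on the other strand, and since the counting was not stated to use strand, its fragments cannot be told apart from those of its partner. Gm11549 was at the detection floor in CeCo, at least 412-fold lower than in StCo. The SE of Six3 (1.03) was the widest of these, and CeHi replicate 3, which enters the pooled spread, had 178.6 normalized counts against 1.85 to 5.05 in the other CeHi samples. Without that sample the adjusted P-value of Six3 went from 3.2e-06 to 1.2e-15.

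The 5 smallest adjusted P-values belonged to genes with a close spread of replicates, of which Cbln3 alone was also among the 10 largest differences. Car8, which encodes a carbonic anhydrase-related protein that binds the inositol trisphosphate receptor in Purkinje cells, had 46976, 55882, 45002 and 46821 in CeCo and 404, 413, 360.2 and 404 in StCo (log2(fold change) 6.94, SE 0.062, adjusted P-value 4.8e-21). Homer3, a postsynaptic scaffold of Purkinje cells, had 10433, 10614, 9797 and 10478 against 249, 267, 249.9 and 239.5 (adjusted P-value 5.8e-20). D0H4S114 (Nrep) had 57550.0 ± 4504 against 2818 ± 74.4 (adjusted P-value 1.2e-18). In the other direction, Pde2a, a phosphodiesterase that cGMP stimulates, had 30881, 29401, 28377 and 32828 in StCo and 1507, 1641, 1634 and 1652 in CeCo (log2(fold change) -4.24, SE 0.054, adjusted P-value 5.4e-19).

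The sequence upstream of leading genes is shown because these genes were high in the ranking of region differences. Of the genes tested 8999 had a single start in the RefSeq promoter table (GRCm38.p6), and the 250 bases before the start were used. The median number of CpG pairs was 12 (quartiles 5 and 20) in the 851 genes called higher in Ce by over 1 on the log2 scale and 13 (6 and 22) in the 1239 called higher in St, against 17 (10 and 23) in the 6909 other genes. The median GC content was 59.2%, 60.4% and 60.4%. The letters TATAAA, on either strand, occurred in 7.87% of the first, 8.72% of the second and 5.59% of the other genes, and in 6.23% of all 8999. The E-box letters CAGATG, on either strand, occurred in 11.6%, 11.6% and 9.16%, and in 9.73% of all. These are descriptions of letters and not of sites. The windows of the first 3 genes of each ranking with a single start follow (Gabra6, Fat2 and Cbln3 at ranks 1 to 3 toward Ce, and Six3, Gda and Gm1337 at ranks 3, 13 and 14 toward St), 5′ to 3′ in the direction of the gene, with CpG pairs in capitals.
Gabra6 (chr11:42321073-42321322, minus strand): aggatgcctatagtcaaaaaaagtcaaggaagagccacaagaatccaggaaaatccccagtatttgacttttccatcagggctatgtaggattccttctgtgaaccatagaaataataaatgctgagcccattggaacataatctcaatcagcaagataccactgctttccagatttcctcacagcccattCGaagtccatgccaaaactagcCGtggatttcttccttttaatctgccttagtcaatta
Fat2 (chr11:55312258-55312507, minus strand): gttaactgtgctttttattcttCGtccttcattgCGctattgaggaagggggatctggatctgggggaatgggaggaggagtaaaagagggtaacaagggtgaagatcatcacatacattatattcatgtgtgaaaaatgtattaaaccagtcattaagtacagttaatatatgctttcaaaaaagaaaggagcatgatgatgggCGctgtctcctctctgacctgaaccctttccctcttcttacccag
Cbln3 (chr14:55884257-55884506, minus strand): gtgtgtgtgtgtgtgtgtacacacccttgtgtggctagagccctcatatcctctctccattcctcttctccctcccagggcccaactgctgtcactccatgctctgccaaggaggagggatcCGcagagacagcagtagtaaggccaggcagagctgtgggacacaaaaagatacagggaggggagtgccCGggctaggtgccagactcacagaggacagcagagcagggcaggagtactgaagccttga
Six3 (chr17:85620584-85620833, plus strand): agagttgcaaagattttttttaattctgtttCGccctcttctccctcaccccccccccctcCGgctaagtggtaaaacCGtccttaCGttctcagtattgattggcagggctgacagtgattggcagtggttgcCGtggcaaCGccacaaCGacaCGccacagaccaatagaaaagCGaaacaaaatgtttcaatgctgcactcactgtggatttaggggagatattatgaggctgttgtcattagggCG
Gda (chr19:21472662-21472911, minus strand): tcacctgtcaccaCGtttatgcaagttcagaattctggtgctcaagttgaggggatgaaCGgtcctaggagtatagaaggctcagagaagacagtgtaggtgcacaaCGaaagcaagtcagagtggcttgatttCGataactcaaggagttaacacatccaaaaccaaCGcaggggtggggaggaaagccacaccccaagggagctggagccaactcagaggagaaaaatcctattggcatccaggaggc
Gm1337 (chr2:118703964-118704213, minus strand): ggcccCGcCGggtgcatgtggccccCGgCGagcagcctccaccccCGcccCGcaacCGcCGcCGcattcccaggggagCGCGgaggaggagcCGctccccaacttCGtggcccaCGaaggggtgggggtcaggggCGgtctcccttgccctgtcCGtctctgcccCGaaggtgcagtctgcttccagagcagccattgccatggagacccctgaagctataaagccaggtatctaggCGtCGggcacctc
The 3 windows of genes higher in Ce held 2 or 3 CpG pairs each, fewer than the median of the genes higher in Ce. Those of the genes higher in St held 10 (Six3), 5 (Gda) and 19 (Gm1337). TATAAA occurred in the window of Gm1337 alone among the 6 and CAGATG in none of them. Gda, which encodes guanine deaminase, had 12543 ± 783 normalized counts in StCo and 30.9 ± 2.75 in CeCo, and Gm1337 (Ankrd63) had 5881 ± 531 and 14.8 ± 4.08.

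Some genes were detected in 1 region alone at this depth. A mean of at least 100 normalized counts in Ce, with 3 fragments or fewer in each StCo sample, was found for 20 genes. Among them were the homeobox and paired box factors Barhl1 (641 to 802 in CeCo), Pax3 (332 to 393), Tlx3 (351 to 409.7) and Lbx1 (98.1 to 123), and the neuronal glycine transporter Slc6a5 (349 to 437). The reverse was found for 34 genes, with at least 100 in St and the floor in Ce. They included Isl1 (680.1 to 967 in StCo), Dlx5 (595 to 869), Dlx2 (358 to 687), Emx2 (364 to 409) and Lhx8 (319 to 597), the peptide gene Trh (154 to 214) and the somatostatin receptor gene Sstr5 (197 to 298). Dlx5 and Pax3 were at 0 in the 4 samples of the lower region. A value at the floor limits what can be detected and does not show that the gene is silent, and the floor covers counting error only.

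Markers of the cell types that each region is built of were compared next. In bulk samples, fewer cells of a type and less RNA per cell cannot be told apart. Of 42 markers of medium spiny neurons, 40 were higher in St (against 36.8% of all genes tested), 1 was higher in Ce and 1 was not called, and the median log2(fold change) was -5.40. Ppp1r1b, the phosphatase regulator downstream of dopamine, had 62988, 49398, 54274 and 65686 in StCo and 5458, 4872, 5326 and 5056 in CeCo (log2(fold change) -3.48, SE 0.088). Drd2, the dopamine receptor of the indirect pathway, had 5103, 3551, 3531 and 4888 against 32.6, 18.7, 23.04 and 30.3, and Adora2a, the adenosine receptor of the same neurons, had 11574, 9496, 9480.1 and 13101 against 69.9, 74.9, 61.4 and 66.8. The peptide precursors Tac1 and Pdyn of the direct pathway had 9401 ± 1153 and 1098 ± 128 in StCo, against 35.4 ± 16.1 and 2.92 ± 1.23 in CeCo. Penk, the precursor of enkephalin in the indirect pathway, had 43916 ± 8476 in StCo and kept 3489 ± 367 in CeCo, so that its difference (-3.64) was smaller than that of Tac1 (-8.12) and Pdyn (-8.17). Arpp21, a phosphoprotein that protein kinase A targets, had 56793 to 77421 in StCo and 4522 to 5486 in CeCo. Ebf1, a factor of the direct pathway neurons, went against its list with 1066, 1122, 894 and 1005 in CeCo and 273, 198, 135 and 250.5 in StCo (log2(fold change) 2.29). Fam40b (Strip2) was not called, at 7369.6 to 7935 in CeCo and 6852 to 8522 in StCo. The sum over the 42 markers was 604269 to 802243 normalized counts in the StCo samples, lowest in replicates 1 and 2, and 50661 to 52608 in the CeCo samples.

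Genes listed as markers of the interneurons of the St followed the same direction. Factors of cortical neurons were also present in the StCo samples, as given below. The part that cells of neighbouring tissue had in these values was not tested. Of 20 markers 19 were higher in St (against 36.8% of all genes tested) and 1 in Ce, with a median of -6.17. The cholinergic genes Chat (839 ± 72.8 in StCo and 2.03 ± 1.204 in CeCo), Slc5a7 (1907 ± 272 and 19.5 ± 6.01) and Slc18a3 (398 ± 99.3 and 2.01 ± 1.34) were among them, as were the peptide genes Sst (9053 ± 446 and 84.7 ± 4.28) and Npy (3494 ± 493 and 166 ± 23.3). Th, the rate-limiting enzyme of dopamine synthesis, had 349 ± 53.6 in StCo and 105 ± 19.6 in CeCo. Nos1, the neuronal nitric oxide synthase that granule cells also carry, was the exception, with 2035, 2455, 1955 and 1859 in CeCo and 1415, 1255, 1236 and 1360.2 in StCo (log2(fold change) 0.65, SE 0.10).

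On the cerebellar side, 20 of 21 markers of granule and unipolar brush cells were higher in Ce (against 38.1% of all genes tested), 1 was not called, and the median was 4.53. Besides the leading genes, Neurod1, a basic helix-loop-helix factor of granule cells, had 31437, 30648, 25069.6 and 30999.5 in CeCo against 290.1, 277, 179 and 188 in StCo, and Cbln1, whose product links granule cell axons to Purkinje cell spines, had 44544, 41422, 36594 and 46041 against 394, 396, 282 and 449.8. Eomes and Lmx1a, factors of the unipolar brush cells, had 1782 ± 231 and 101 ± 22.1 in CeCo, against 27.5 ± 21.1 and 0.229 ± 0.457 in StCo. Slc17a7, the vesicular glutamate transporter of granule cells and of cortical neurons, was not called, with 27899.9, 28599.5, 25215 and 30380.5 in CeCo and 34379, 40268, 27245 and 33137 in StCo (log2(fold change) -0.26, SE 0.17, adjusted P-value 0.19, or 0.039 and higher in St when the 8 Co samples were fitted alone). Medium spiny neurons are GABAergic, and the glutamatergic neurons of the cortex are not part of the St. Which cells the Slc17a7 fragments of the StCo samples came from was not tested.

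Of 30 Purkinje cell markers, 26 were higher in Ce and 3 in St, against 38.1% and 36.8% of all genes tested. The other 1 was not called, and the median was 2.42. Itpr1, the inositol trisphosphate receptor, had 141267, 158667, 132454 and 123433 in CeCo against 47097, 44340.5, 34560.0 and 51110.0 in StCo, a log2(fold change) of 1.66. Calb1, a calcium buffer, had 46839.7 ± 3684 against 10269 ± 1846, Slc1a6, the glutamate transporter of Purkinje cells, had 4930.4 ± 337 against 226 ± 32.6, and Arhgef33 had 7444 ± 627 against 40.8 ± 8.44. The members higher in St were Bcl11a (4152 to 4947 in StCo and 508 to 657 in CeCo), Pcp4 (18312 to 26645 and 14219 to 16779.6) and Doc2b (4437 to 5606 and 3973 to 5085). The samples of the regions overlapped for Doc2b, which was not called when any of CeCo replicates 0, 2 and 3 or StCo replicates 0 and 3 was left out (adjusted P-values up to 0.079). Pcp4 is also carried by medium spiny neurons and Bcl11a by forebrain neurons. Dab1, the adaptor of the reelin receptors, was not called, with 4739 to 5445 in CeCo and 4671 to 5146 in StCo. Among 14 tested markers of cerebellar inhibitory interneurons 10 were higher in Ce and 2 in St, with a median of 1.36, and Gata3 was below the filter. Pvalb, a calcium buffer of these and of Purkinje cells, had 21324, 22847, 21654 and 22831 in CeCo and 973, 851, 827 and 668 in StCo. Tfap2b had 2902 ± 661 and 24.9 ± 12.7, and Kit 8881 ± 783 and 1828 ± 64.1. The exceptions were Nxph1 (404 ± 65.01 in CeCo and 1211 ± 45.7 in StCo) and Sorcs3 (1098 ± 153 and 2435 ± 414).

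**Figure D2:**
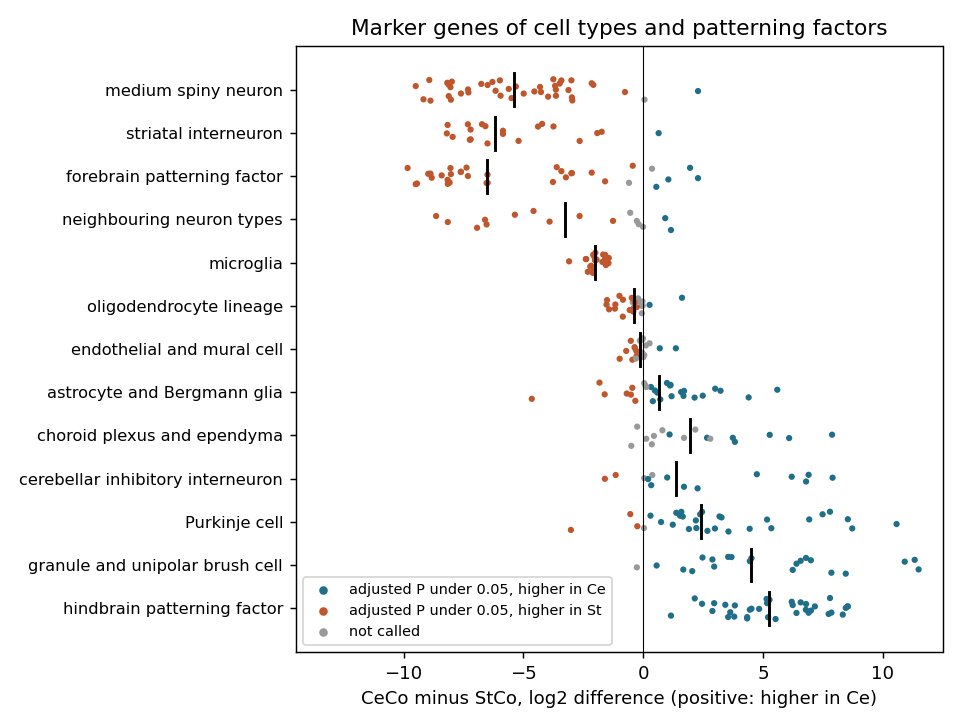
Log2(fold change), CeCo minus StCo, of each tested member (point) of 13 gene lists (rows), with the median of each list as a black bar. The lists of striatal neurons and forebrain factors lie to the left and those of cerebellar neurons and hindbrain factors to the right, whereas all 20 microglia markers lie between -3.09 and -1.43 and the endothelial and mural markers lie around 0.

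Glial genes divided by cell type. All 20 microglia markers were higher in St, against 36.8% of all genes tested. For all 20 the samples of the regions did not overlap, against 69.9% of all genes tested, and the median was -2.02. Cx3cr1, the fractalkine receptor, had 3155, 2838, 2417 and 2764 in StCo and 502, 621, 513 and 516 in CeCo (log2(fold change) -2.37, SE 0.11), and Csf1r, the receptor that microglia depend on, had 4218, 4209.5, 4276 and 4002 against 979.5, 1111, 1017 and 959. The sum over the markers was 29317 to 32264 in StCo and 8033 to 9215 in CeCo. Of 26 oligodendrocyte lineage markers 15 were higher in St and 2 in Ce, against 36.8% and 38.1% of all genes tested. The median of these markers was -0.40. Among those higher in St by over 1 on the log2 scale were the precursor genes Pdgfra (3122 ± 96.7 in StCo and 1170.0 ± 99.8 in CeCo), Cspg4 (764 ± 94.6 and 268 ± 20.7), Gpr17 (4049 ± 459 and 1421 ± 277) and Olig1 (5479 ± 513 and 2454 ± 184), and Opalin (436 ± 129.6 and 188 ± 34.7), a gene of mature oligodendrocytes. The myelin gene Mbp was not called (102201 to 116845 in CeCo and 104072 to 155727 in StCo) except when StCo replicate 1 was left out (adjusted P-value 0.024). Klk6, a protease of oligodendrocytes, was higher in Ce (511 to 643 against 143 to 243) and had the largest difference of the list in size (1.62). Also higher in Ce was Trf (7048 to 9562 against 5690.2 to 6918). The sum over this list was 364181 and 364632 in StCo replicates 0 and 3 and 255039 and 281562 in replicates 1 and 2, the order seen for Drd1a, and 229470 to 278031 in CeCo.

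Of 28 astrocyte and Bergmann glia markers 18 were higher in Ce and 7 in St, against 38.1% and 36.8% of all genes tested. The other 3 were not called, and the median was 0.66. Genes of the Bergmann glia, the astrocytes of the Purkinje cell layer, had the larger values, with Gdf10 at 7503 ± 1034 in CeCo and 350.4 ± 19.3 in StCo, and Hopx at 4927 ± 409.9 and 528 ± 97.4. A2m had 3216 ± 634 and 66.5 ± 20.3. The glutamate transporters of astrocytes went in opposite directions, Slc1a3 with 68163, 72689.5, 64416 and 63755 in CeCo and 29399, 30766, 31208 and 29659.5 in StCo, and Slc1a2 with 41675, 44367, 40077 and 39113 in CeCo and 146875, 156993, 122439 and 158709 in StCo. Slc6a11, a GABA transporter, had a log2(fold change) of -1.60. The lowest value of the list was that of Npy2r (-4.65), a neuropeptide Y receptor that neurons carry, so its difference cannot be assigned to glia. Gfap was not called (3383 to 4335 in CeCo and 3415 to 3736 in StCo). Of 24 endothelial and mural markers 15 were not called, 7 were higher in St and 2 in Ce, with a median of -0.12. The tight junction gene Cldn5 had 845 to 1121 in CeCo and 896 to 1166 in StCo, and the largest difference was that of Pltp (1.37), a phospholipid transfer protein that other brain cells also carry.

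Genes of cells that lie next to the dissected regions were measured as well, and their levels varied between samples. Ttr, the transthyretin of the choroid plexus, had 74572, 921, 109529 and 33930.4 normalized counts in CeCo replicates 0 to 3 and 504, 44.5, 54.6 and 62.2 in the StCo replicates. CeCo replicate 1 thus stood far below the other CeCo samples, and the SE of the log2(fold change) was 1.96. The sum over 16 choroid plexus and ependyma markers was 82252, 3119, 121320 and 38720.0 in CeCo and 2433 to 3384 in StCo. Of the 16 markers 7 were higher in Ce (against 38.1% of all genes tested) and 9 were not called. Without CeCo replicate 1 the numbers were 10 higher in Ce and 0 in St. In the StCo samples, factors of cortical glutamatergic neurons were present in every replicate, with Tbr1 at 4624, 4697, 3090.4 and 3988 in StCo against 29.8, 31.2, 34.1 and 33.8 in CeCo. The sum of Tbr1, Neurod6, Emx1 and Fezf2 was 7738, 8009, 5177 and 7074 in StCo replicates 0 to 3 and 160.5 to 182 in CeCo. These cortical factors were higher in St by the same test as the striatal genes, and the part that cells of neighbouring tissue had in the differences toward St was not tested. Oxt, a peptide of the hypothalamus, had 33.3, 70.2, 397 and 13.7 in StCo, highest in replicate 2. Of the 16 tested genes of neighbouring neuron types 10 were higher in St (against 36.8% of all genes tested) and 2 in Ce. The list held 8 others below the filter, among them the serotonin neuron genes Slc6a4 and Fev and the noradrenergic gene Dbh.

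**Figure D3:**
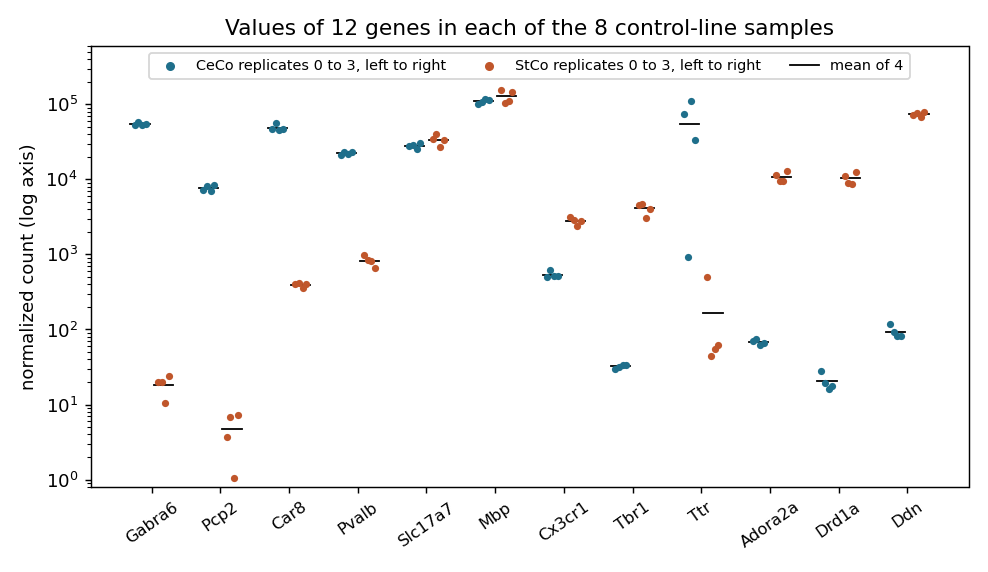
Normalized counts on a log axis of 12 genes in the 4 CeCo and 4 StCo samples, with the mean as a bar. The regions lie apart for Gabra6, Pcp2, Car8, Adora2a and Drd1a and overlap for Slc17a7 and Mbp, and Ttr spreads from 921 to 109529 within CeCo.

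Transcription factors were compared in lists named for the patterning of the forebrain and of the hindbrain. Of 34 tested forebrain patterning factors 28 were higher in St and 4 in Ce, against 36.8% and 38.1% of all genes tested. The other 2 were not called, the median was -6.51, and Gsx2 was below the filter. The Dlx genes specify GABAergic neurons of the forebrain, and Dlx1 (629 to 1089 in StCo and 0.932 to 3.56 in CeCo) and Dlx6 (774 to 841 and 0 to 2.67) were higher in St beside Dlx2 and Dlx5. Factors of the striatal projection neurons were also higher in St, Meis2 at 14209 ± 1488 in StCo and 159 ± 34.03 in CeCo, Bcl11b at 12491 ± 1382 and 63.1 ± 2.23, and Foxp1 at 10086 ± 1967 and 936 ± 60.6. The exceptions were Meis1 (2192 to 2491 in CeCo and 499 to 694 in StCo), Ebf1, Ikzf2 (278 to 352 and 144 to 166) and Nr2f1 (2073 to 2472 and 1384 to 1945). Meis1 and Meis2, which are close relatives, thus went in opposite directions.

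All 36 tested members of the hindbrain list were higher in Ce by over 1 on the log2 scale, against 10.2% of all genes tested. Their median was 5.25, and 19 others, most of them Hox genes, were below the filter. The members were chosen with earlier results of these data known, and some, such as Otx2 and Pax6, are not factors of the hindbrain alone. The count thus describes the list and is no result about hindbrain patterning. En2, an engrailed factor of the midbrain and hindbrain border, had 9368, 9764, 8522 and 9251 in CeCo and 35.8, 41.5, 37.8 and 54.8 in StCo, and its relative En1 had 180.5 ± 45.4 and 4.07 ± 2.23. The zinc finger genes of the Zic family lie in 2 divergent pairs. Zic1 (chr9:91358058-91365810, 38151 ± 2042 in CeCo and 1891 ± 827 in StCo) and Zic4 (chr9:91362413-91389348, 2050.0 ± 269.6 and 288 ± 135) are neighbours, as are Zic2 (chr14:122475435-122479852, 15559 ± 2364 and 743 ± 348) and Zic5 (chr14:122456795-122465677, 1379 ± 67.7 and 104 ± 39.1), in coordinates of GRCm38. Zic1 and Zic4 overlap in part on opposite strands, and fragments of that part cannot be told apart. All 4 genes were called, at log2(fold change) values of 4.46, 2.97, 4.53 and 3.81. The Iroquois genes Irx1, Irx2, Irx3 and Irx5 had log2(fold change) values of 3.64, 5.28, 7.17 and 4.85. Otx2, which choroid plexus cells also carry, was at 537, 429, 636 and 497 in CeCo, where replicate 1 was lowest by a much smaller margin than for Ttr.

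Subunits of the receptors for fast transmission differed between the regions. Of 21 tested GABA and glycine receptor genes 6 were higher in Ce and 13 in St, against 38.1% and 36.8% of all genes tested. The median of the 21 was -0.92. GABA-A receptors are pentamers in which the alpha subunit sets much of the pharmacology. Whereas Gabra6 was higher in Ce, Gabra2 (1942 ± 151 in CeCo and 4499.7 ± 499 in StCo), Gabra3 (700.0 ± 48.1 and 5857 ± 611), Gabra4 (2016 ± 145 and 9771 ± 1612) and Gabra5 (25.2 ± 4.28 and 2236 ± 258) were higher in St. Many genes of these receptors lie in clusters. Gabra6 (chr11:42306437-42321072) and Gabrb2 (chr11:42419757-42629028), on chromosome 11, were both higher in Ce, with log2(fold change) values of 11.50 and 0.69. The 4 genes of the cluster on chromosome 5 (chr5:70751047-72149037), Gabrg1, Gabra2, Gabra4 and Gabrb1, were higher in St, with -0.92, -1.21, -2.26 and -0.44. So were Gabrg3 and Gabra5 on chromosome 7, with -4.61 and -6.43, and the 3 on chromosome X (chrX:72255999-72842602), Gabre, Gabra3 and Gabrq, with -3.85, -3.06 and -4.18. Gabra4 and Gabrb1 overlap at their starts, so a part of their fragments may be shared. Gabrd, the delta subunit of extrasynaptic receptors, was higher in Ce (9216 ± 489 and 3562 ± 399.9).

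Per kilobase of annotated exon, Gabra6 made up 70.6% ± 0.566 of the 6 alpha subunit genes in CeCo, whereas in StCo Gabra4 made up 27.3% ± 3.29, Gabra3 17.8% ± 1.505, Gabra2 9.05% ± 0.980 and Gabra5 8.82% ± 0.713. In StCo Gabra2 and Gabra5 thus did not differ beyond their spread. The alpha subunit genes together were at 30950 ± 1773 normalized counts per kilobase in CeCo and 8534 ± 921 in StCo. The exon lengths are those of the GENCODE annotation, since the gene models of the authors are not given in the sources used here, and levels of different genes are compared only on this per-length scale.

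Among 18 ionotropic glutamate receptor genes 6 were higher in Ce and 10 in St, against 38.1% and 36.8% of all genes tested. The other 2 were not called, and the median was -0.48. Gria4, an AMPA receptor subunit, was higher in Ce (28507, 31778, 27152 and 28582 in CeCo and 4932, 4561, 4239 and 4281 in StCo), and Gria2, the subunit that blocks calcium entry, was higher in St (18752, 22728, 19917 and 17307 and 36403, 38662, 36175 and 38406). Per kilobase of exon, the share of Gria2 in the 4 AMPA receptor genes was 15.3% ± 1.07 in CeCo and 36.2% ± 0.690 in StCo, and that of Gria4 was 37.7% ± 0.718 and 7.26% ± 0.582. The NMDA receptor subunits Grin2b and Grin2c went in opposite directions, Grin2b with 78.8 ± 9.42 in CeCo and 1488 ± 384 in StCo, and Grin2c with 14482 ± 1157 and 2588 ± 98.9. The delta receptor gene Grid1 was higher in St, with a log2(fold change) of -1.82. Of 7 tested metabotropic receptors 2 were higher in Ce, among them Grm4 (14897 ± 2365 in CeCo and 1498 ± 177 in StCo), 4 were higher in St and 1 was not called. Grm5, which couples to phospholipase C, was higher in St, with 16882, 17101, 15918 and 19752 in StCo and 413, 379, 445 and 351 in CeCo.

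Receptors for monoamines, acetylcholine and adenosine were mostly genes of the St. Of 41 tested genes 35 were higher in St and 5 in Ce, against 36.8% and 38.1% of all genes tested. The median of the 41 was -2.68, and 1 was not called. The dopamine receptors Drd3 (64.96 ± 14.7 in StCo and 1.53 ± 1.25 in CeCo) and Drd5 (178 ± 22.6 and 29.4 ± 3.13) were also higher in St. Per kilobase of exon, the StCo mean was 2879.8 normalized counts for Drd1a, 1676 for Drd2, 56.4 for Drd5 and 37.9 for Drd3. All 5 muscarinic receptor genes were higher in St, led by Chrm1 (7988, 8093, 7705 and 8212 in StCo and 19.6, 24.96, 26.5 and 17.8 in CeCo) and Chrm4 (4034, 3763, 4318 and 4278 and 62.4, 81.1, 57.2 and 57.9). The histamine receptor Hrh3 had 7177 ± 494 and 529 ± 72.1, and the serotonin receptor Htr2c had 4983, 6312, 5908 and 5718 in StCo and 678, 156, 1185 and 391 in CeCo, where replicate 1 was the lowest, as for Ttr. Htr2c is also a gene of the choroid plexus. Among the 5 genes higher in Ce were Adora1 (12844 to 13754 in CeCo and 9046 to 11757 in StCo) and the nicotinic receptor genes Chrnb2 (4778 to 5691 and 2722 to 3402), Chrna3 (62.4 to 98.1 and 32.6 to 49.4) and Chrnb4 (64.3 to 134 and 10.1 to 15.8). Chrna3 and Chrnb4 are neighbours that encode subunits of 1 receptor, and Chrna5, the third gene of that locus, was higher in St (0.853 to 3.73 in CeCo and 66.2 to 133 in StCo).

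Of 15 tested genes of the opioid and cannabinoid systems 9 were higher in St and 2 in Ce, against 36.8% and 38.1% of all genes tested. The median of the 15 was -1.04. The opioid receptors Oprm1, Oprd1 and Oprk1 had 123 ± 18.97, 1205 ± 198 and 2074 ± 165 in StCo and 2.05 ± 1.79, 44.6 ± 11.4 and 33.5 ± 7.17 in CeCo. Cnr1, the cannabinoid receptor of presynaptic terminals, was higher in Ce, with 26219, 29961, 24677 and 27337 in CeCo and 20175, 15988, 11748 and 21149 in StCo (log2(fold change) 0.68, SE 0.15). Of the enzymes that make an endocannabinoid, Daglb was higher in Ce (log2(fold change) 0.34) and Dagla was higher in St (log2(fold change) -0.18, adjusted P-value 0.024). The call of Dagla was lost without CeCo replicate 2 or 3 or StCo replicate 0 or 3 (adjusted P-values of 0.061 to 0.093), after quantile scaling and without the filter. Mgll, which degrades the product, was higher in St (-1.04).

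**Figure D4:**
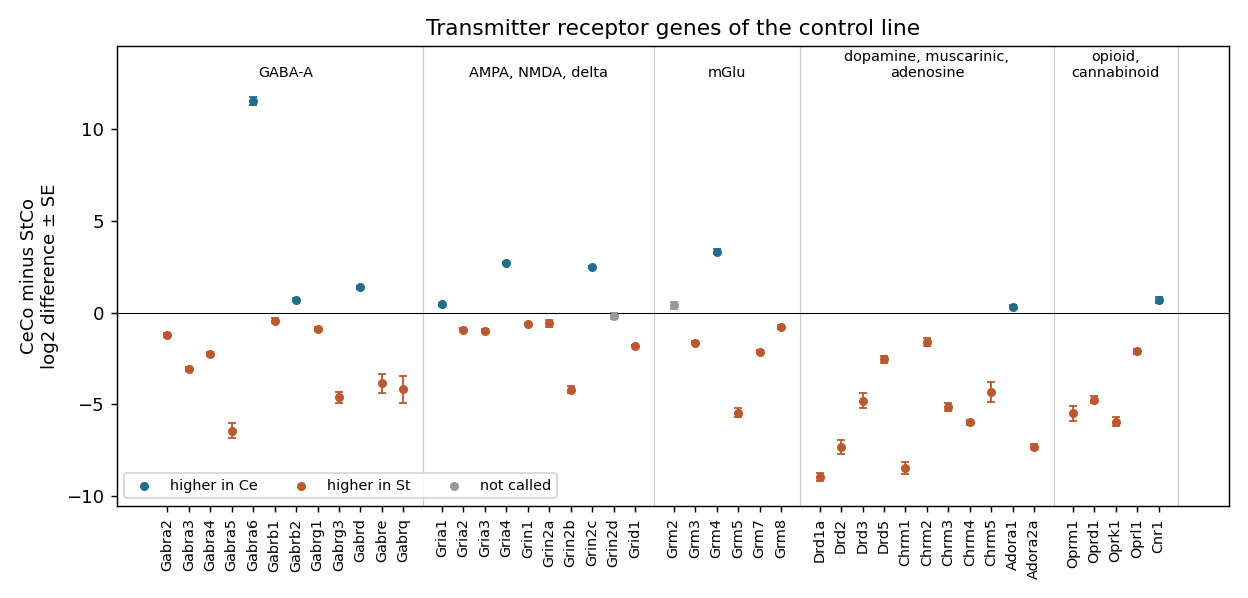
Log2(fold change), CeCo minus StCo, with its SE for receptor genes in 5 groups. Gabra6, Gria4, Grin2c and Grm4 stand above 0, the dopamine, muscarinic and opioid receptors all stand below it, and the points in grey were not called.

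Genes that make and move transmitters were compared next. Gad1, a GABA-synthesizing enzyme, was called higher in St by a small difference with overlapping samples (22609 to 27117 in CeCo and 26019 to 29983 in StCo, log2(fold change) -0.20), and Gad2 (7303 ± 412 and 24874 ± 2525) and the vesicular GABA transporter Slc32a1 (5172 ± 66.3 and 10162 ± 1318) were higher in St. Of the 25 tested genes of this list 8 were higher in Ce and 14 in St, against 38.1% and 36.8% of all genes tested. The median of the 25 was -0.69. The glycine transporters Slc6a5 and Slc6a9 were both higher in Ce (7.91 and 0.998). Slc17a8, the vesicular glutamate transporter of cholinergic interneurons, was higher in St (458 ± 34.05 and 13.1 ± 2.93). The dopamine transporter gene Slc6a3 was below the filter (0 to 4.45 in CeCo and 7.41 to 15.8 in StCo). The cause of these low values was not tested.

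Signaling enzymes downstream of the receptors differed in opposite directions within families. Of 41 tested cAMP and cGMP enzymes and regulators 10 were higher in Ce and 28 in St, against 38.1% and 36.8% of all genes tested. The median of the 41 was -0.69. Adcy1, an adenylyl cyclase that calcium and calmodulin activate, had 122673, 122615, 114198 and 117496 in CeCo and 27536, 28683, 19384 and 28642 in StCo, and Adcy5, the cyclase that couples dopamine receptors in medium spiny neurons, had 1821, 1812, 1975 and 1945 in CeCo and 37998, 34023, 34894 and 42416 in StCo. Per kilobase of exon, Adcy1 made up 84.8% ± 0.393 of 7 cyclase genes in CeCo and 20.6% ± 2.51 in StCo, and Adcy5 2.35% ± 0.176 and 51.9% ± 2.95, while the sum of the 7 was 11472 ± 351 in CeCo and 10266 ± 795 in StCo. The phosphodiesterases Pde1b (40018 ± 5731 in StCo and 1003 ± 67.6 in CeCo), Pde2a and Pde10a (49667 ± 9565 and 5670.2 ± 399) were higher in St. Pde5a (4131 ± 405 in CeCo and 297 ± 40.6 in StCo) and Pde9a (2118 ± 232 and 1038 ± 99.9), which are specific for cGMP, were higher in Ce, as was Pde1c (2.06). Over 12 phosphodiesterase genes the sum per kilobase was 5138 ± 244 in CeCo and 30239 ± 3307 in StCo. The regulatory subunit Prkar2b of protein kinase A had 8352 ± 279.7 and 648 ± 43.7, and the cGMP-dependent kinases Prkg1 and Prkg2 went in opposite directions (1.10 and -3.84).

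Of 40 tested G protein and RGS genes 7 were higher in Ce and 26 in St, with a median of -0.64. Gnal, the stimulatory alpha subunit of the St, had 32578 ± 4695 in StCo and 7668 ± 176 in CeCo. The gamma subunits Gng7 (1081 ± 62.5 in CeCo and 52966 ± 6864 in StCo) and Gng13 (3880.5 ± 293 and 485 ± 54.2) went in opposite directions. RGS proteins speed the shutoff of G proteins, and Rgs9 (20007, 17072, 19116 and 23344 in StCo and 272, 124, 131 and 248 in CeCo), Rgs14 (2866 ± 173 and 6.21 ± 3.32) and Rgs4 (23442 ± 4509 and 982 ± 55.3) were higher in St, and Rgs8 (49227 ± 3283 in CeCo and 10528 ± 802 in StCo) was higher in Ce. By the call alone, calcium genes divided about as all genes tested did, of which 38.1% were higher in Ce and 36.8% in St. Of the 37 calcium genes 16 were higher in Ce and 16 higher in St, with a median of -0.12. By over 1 on the log2 scale, 14 were higher in Ce and 11 in St, against 10.2% and 14.9% of all genes tested. Atp2a3, a calcium pump of the endoplasmic reticulum, had 10471, 11394, 9959 and 10339 in CeCo and 201, 205, 174 and 204 in StCo. Camk2a, the calmodulin kinase of forebrain neurons, had 109373, 112373, 94959 and 103501 in StCo and 3885, 3867, 3457 and 3643 in CeCo, and the calcium sensors Hpca (51497 ± 7816 and 3314 ± 319) and Hpcal4 (50784 ± 6598 and 1561 ± 103) were higher in St, while Hpcal1 (9525 ± 793 in CeCo and 2224 ± 319 in StCo) was higher in Ce. Summed per kilobase, the buffers Calb1, Calb2 and Pvalb were at 38577 ± 1899 in CeCo and 3733 ± 238 in StCo.

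Ion channels were also divided by family member. Of 61 potassium channel genes 21 were higher in Ce and 32 in St, against 38.1% and 36.8% of all genes tested. Their median was -0.37. The channels that let neurons fire fast belong to the Kcnc family, of which Kcnc1 (33674 ± 3247 in CeCo and 7189 ± 666 in StCo) was higher in Ce and Kcnc2 was higher in St (3342 ± 579.6 in StCo and 276 ± 67.2 in CeCo). Leak channels Kcnk3 (2.82), Kcnk10 (3.22) and Kcnk12 (2.78) were higher in Ce, as were Kcnk1 (0.85) and Kcnk9 (0.58), while Kcnk2 (-3.31) was higher in St. Inward rectifiers of medium spiny neurons were higher in St, Kcnj4 with 6642, 7301, 6740.4 and 7158 in StCo and 21.4, 23.2, 21.3 and 16.03 in CeCo and Kcnj2 with a log2(fold change) of -3.58, and so were Kcnf1 (-7.41), Kcng1 (-7.47), Kcnh4 (-6.56) and the M-current gene Kcnq5 (-6.29). Of 34 sodium and calcium channel genes 13 were higher in Ce and 17 in St, beside the same shares of all genes. Their median was -0.30. Cacna1a, the P-type channel of Purkinje cells, had 21649, 21028, 18430.2 and 20527 in CeCo and 7876, 6992, 6690.0 and 7502 in StCo. T-type channels differed in sign, Cacna1g with 11382 ± 880.0 in CeCo and 3034 ± 308 in StCo, and Cacna1h with 149.7 ± 23.9 and 4900.4 ± 267. The sodium channel subunits Scn3b (-5.43), Scn3a (-4.79) and Scn4b (-3.96) were higher in St.

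Neuropeptides were nearly all higher in St, in 29 of 33 tested genes against 2 higher in Ce, with a median of -2.31, and 7 of the list were below the filter. Cpe, which processes peptide precursors, had 93917 to 104902 in StCo and 35131 to 39689 in CeCo. Cartpt (818 ± 231 and 2.44 ± 0.804), Nts (925 ± 158 and 5.54 ± 1.17) and Vip (881 ± 105 and 3.18 ± 2.94) were low in CeCo. The 2 genes higher in Ce, Chgb (29266 ± 2469.7 in CeCo and 15134 ± 1713 in StCo) and Scg3 (16371 ± 927 and 11088 ± 633), encode granins of the secretory vesicle and no transmitter peptide. Pomc, the precursor of melanocortins, was not called, with 333, 29.4, 30.7 and 44.5 in CeCo and 39.5, 59.3, 61.95 and 49.4 in StCo, and without CeCo replicate 0 it was higher in St (log2(fold change) -0.58, adjusted P-value 0.044). Of 43 synapse adhesion genes 9 were higher in Ce and 27 in St, with a median of -0.62. The cerebellins went in pairs, Cbln1 and Cbln3 higher in Ce, and Cbln2 (1472 ± 174 in StCo and 16.1 ± 6.91 in CeCo) and Cbln4 (566 ± 123 and 45.2 ± 12.6) higher in St. Lrrtm1 (-3.95), Cntnap3 (-7.36) and Slitrk5 (-2.36) were also higher in St, and Cntn6 (1.78), Cntnap4 (1.55) and Lgi4 (1.63) in Ce. Of 41 tested genes of the extracellular matrix 15 were higher in Ce and 21 in St, against 38.1% and 36.8% of all genes tested. Their median was -0.48. Ncan, the neurocan of perineuronal nets, had 6936, 6729, 6875 and 7304 in StCo and 649.6, 633, 671 and 621 in CeCo, Tnc, the tenascin that Bergmann glia carry, had 1324 ± 60.6 in CeCo and 129 ± 22.1 in StCo, and Reln, the secreted reelin, had 12822 ± 1319.8 and 4334 ± 475. Of the fibrillar collagen genes of the list, Col1a1, Col1a2 and Col3a1 were higher in Ce by 1.71, 1.98 and 2.09 on the log2 scale, Col11a1 was higher in St (-2.81) and Col5a2 was not called (0.16).

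Activity-dependent genes were measured in mice taken from wheels in the dark hours. Of 29 immediate early genes 16 were higher in St and 3 in Ce, against 36.8% and 38.1% of all genes tested. The other 10 were not called, and the median was -1.37. With the replicate number as a block, or with quantile scaling, 5 rather than 3 were higher in Ce. Egr1 had 12123, 12901, 14822 and 12022 in StCo and 1114, 1907, 1114 and 1115 in CeCo, Arc, whose RNA moves to active synapses, had 5826, 7794, 9295 and 4861 and 964, 715, 636 and 906, Fosb had 678 ± 43.5 and 33.6 ± 9.003, and Egr3 had 2386 ± 237 and 7.77 ± 1.13. Fos was not called, with 514, 1959.6, 2409 and 622 in CeCo, highest in replicates 1 and 2, and 758, 1099, 1229 and 524 in StCo (adjusted P-value 0.49). Ier2 was higher in Ce (553, 987, 933 and 561 in CeCo and 163, 238, 247 and 154 in StCo), as were Ier3 (0.72) and Jun (0.54). Of 21 circadian clock genes 5 were higher in Ce and 8 in St, against 38.1% and 36.8% of all genes tested. The other 8 were not called, and the median was -0.12. Npas2, a clock factor of the forebrain, was 20.7-fold higher in St (3068 ± 393 in StCo and 148 ± 43.2 in CeCo). Nfil3 (1.37), Nr1d2 (0.88) and Cry1 (0.83) were higher in Ce.

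Genes of inherited movement disorders were described by the region that the disorder is known for. Of 41 genes of inherited cerebellar ataxia 26 were higher in Ce and 9 in St, against 38.1% and 36.8% of all genes tested. The other 6 were not called, and the median was 0.41. Many of the 26 are Purkinje cell genes named above, such as Car8, Itpr1 and Cacna1a, so the lists are not independent. Among the 9 higher in St were Pdyn, Ppp2r2b (-1.67) and Atxn1 (-0.80). Of 35 tested genes of inherited chorea and dystonia 20 were higher in St, 5 in Ce and 10 were not called, with a median of -0.31, and Adcy5, Pde10a, Hpca and Gnal were again shared with the lists above. Htt, the gene of Huntington disease, did not pass the test (7202 to 7834 in CeCo and 7284 to 7886 in StCo, log2(fold change) 0.01, SE 0.074). Prrt2 (25101 ± 2037 in CeCo and 10579 ± 719 in StCo) and Tubb4a (43957 ± 2766 and 24124 ± 1853) were higher in Ce.

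By gene class, 22.1% of 538 long noncoding genes tested were called higher in St and 15.2% higher in Ce by over 1 on the log2 scale, against 14.7% and 10.02% of 13885 protein-coding genes. The protein-coding genes called higher in St by over 1 on the log2 scale had a median span of 34.6 kb in the annotation. Those called higher in Ce by over 1 had 26.5 kb, and the others, called or not, had 24.9 kb. In the same order, the median exon length was 3.67, 3.57 and 3.40 kb.

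The region difference was also set against that of the Hi line, which shares no sample with it. As a description across the 15213 genes, which do not replicate each other, the log2(fold change) between regions had a Pearson correlation of 0.980 and a Spearman correlation of 0.966 between the lines. Of the 3816 genes called in Co with a difference over 1, 3727 were called in Hi (where 70.5% of all genes were called) with the same sign, and 12 had the opposite sign. A test of the difference between the lines passed for 80 genes (0.526%), of which 74 were called in Co, and the region difference was larger in size in Co for 52 of the 80. With the replicate number as a block 53 genes passed, 35 of them among the 80, and the number was 49 without StCo replicate 1 and 123 without StCo replicate 2. Krt25, a keratin, had 190.3 to 252 in CeCo and 2.74 to 11.1 in StCo, against 52.98, 70.7, 32.4 and 63.4 in CeHi and 45.4, 56.3 and 53.4 in StHi, so the regions were apart in Co and overlapped in Hi (interaction log2 value 5.004, adjusted P-value 3.3e-05). Vdr, the vitamin D receptor, had 90.4 to 132 in CeCo and 46.9, 41.5, 29.4 and 42.97 in StCo, and the order of the regions was the reverse in Hi (10.1, 12.7, 12.97 and 6.34 in CeHi and 36.3, 30.1 and 26.1 in StHi). Cd300lf, an immune receptor, was higher in St in Co with 54.3 to 67.6 in StCo and 25.2 to 35.7 in CeCo (adjusted P-value 0.020, or 0.056 without CeCo replicate 0). It had 9.51 to 18.99 in CeHi and 1.19 to 6.798 in StHi. Ms4a3 was higher in Ce in Co (217 to 287 and 37.5 to 70.4) and at the floor of 3 fragments in both regions of Hi, where no fold is given. Aldh3a1, an aldehyde dehydrogenase, was at 4.66 to 21.4 in CeCo and 40.95 to 66.7 in StCo, and at 14.8 to 25.4 in CeHi and 5.83 to 13.1 in StHi. The adjusted P-values of the interaction were 0.00035 for Vdr, 0.0089 for Cd300lf, 0.006 for Ms4a3 and 0.016 for Aldh3a1. With the replicate number as a block that of Aldh3a1 was 0.056 and the other 4 genes passed.

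**Figure D5:**
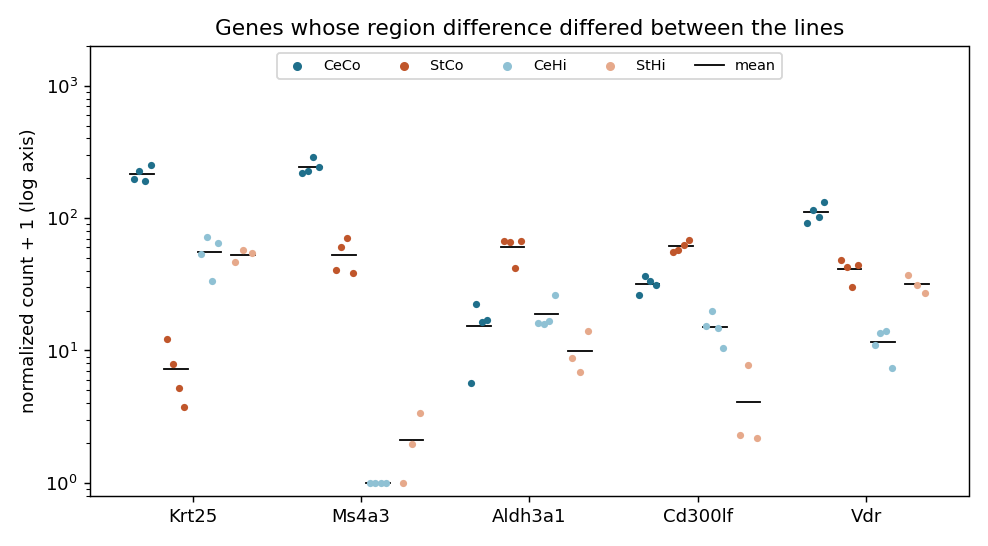
Normalized counts plus 1 on a log axis of the 5 genes with the largest interaction among those called in Co, in 4 CeCo, 4 StCo, 4 CeHi and 3 StHi samples, with the mean as a bar. The Krt25 samples of the regions are apart in Co and overlap in Hi, and Ms4a3 is at or near the bottom of the axis in Hi.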

How the data were processed

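Whole Ce and St of individual mice were sequenced as paired-end reads on an Illumina HiSeq instrument. Per the labels and the methods of the study, the authors aligned the reads to the mouse genome (GRCm38, also written mm10) with TopHat2 and quantified genes with Cuffnorm 2.2.1, and 1 further StHi sample was left out by them. The deposited table is named FPKM, yet its values were tested and found to be a depth-scaled signal, fragment counts per gene divided by 1 factor per sample. Between 99.46% and 99.67% of low values in the 8 Co samples were whole multiples of 1 fragment, within a tolerance of 0.05, as were 99.44% to 99.61% in the Hi samples. The gene models and any use of strand are not given in the sources used here.

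The signal was scaled by TMM factors (0.997 to 1.00), log2(value + 1) was taken, and limma 3.58.1 (R 4.3.3) with a mean-variance trend and robust moderation was fitted to the 4 group means of the 15 samples, after genes with a CPM of at least 1 in 3 samples were kept. P-values were adjusted by Benjamini-Hochberg over the 15213 genes. A fold change on the log2(value + 1) scale understates that of low genes, and folds in the text are ratios of means. The recovered fragments were tested with the quasi-likelihood test of edgeR 4.0.16 and with DESeq2 1.42.0 as alternatives. In simulated data 200 of 15213 genes were changed by 1 on the log2 scale, with independent samples and the same dispersion for every gene. Of the 200 genes 99.5% were recovered, and 3.398% of calls were false. In the real data most genes were called, the spread differed by gene and the samples were paired by number. The simulated rates check the fit and are not error rates of these data.

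Residuals of CeCo and StCo samples of the same number correlated at 0.171 to 0.278 in 4 pairs, against -0.163 to 0.0152 in the 12 other pairs, so the numbers pair the samples, and a fit with the number as a block was made. The labels do not say what a number stands for. The main fit does not use the pairing. Its P-values measure the spread between individual mice within the groups, pooled over both lines, and not the spread of the region difference within pairs.

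The 31 gene lists (822 different genes, 770 tested) were written from general knowledge of cell types and pathways. The members and lists were chosen with earlier results of these data known, so their counts are descriptions beside the background share and no list was tested as a set. Genes were named by a rule: the 10 largest differences in each direction among called genes with a mean of at least 1000 in the higher region, the smallest adjusted P-values, and from each list the largest, the highest, the exceptions and members of receptor and enzyme families. Positions and exon lengths came from GENCODE M21 annotation on GRCm38 (24510 of 26628 genes placed, 2087 under an older symbol), and promoters from RefSeq. Intervals and floors cover counting error only. Some genes that the rule names are not reported here.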

Additional observations from a re-analysis of the deposited data

Results flagged for a closer look

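In 498 groups of 4 samples (CeCo and StCo for each gene named in the text or measured in it), 36 held a sample set apart from the other 3 by more of the range of the group than the Dixon limit for 4 samples, which chance passes in about 1 of 20 groups. Values are normalized counts of the sample set apart. CeCo replicate 0 was highest for Dbh (24.2), Npas2 (212) and Pomc (333). CeCo replicate 0 was lowest for Gm11549 (0) and Pde2a (1507). CeCo replicate 1 was highest for Cacna1g (12702), Cx3cr1 (621), Doc2b (5085), Egr1 (1907) and Scg3 (17754). CeCo replicate 1 was lowest for Slc18a3 (0). CeCo replicate 2 was highest for Cbln4 (64.00), Drd3 (3.41), Prkg2 (41.8), Scn3b (220.2) and Trh (0.853). CeCo replicate 2 was lowest for Neurod1 (25070.0). CeCo replicate 3 was highest for Fezf2 (3.56). CeCo replicate 3 was lowest for Isl1 (0) and Scn3a (148). StCo replicate 0 was highest for En1 (7.41) and Ttr (504). StCo replicate 1 was highest for Kcnk10 (119.7) and Lbx1 (0.989). StCo replicate 1 was lowest for Kcnj2 (2602). StCo replicate 2 was highest for Gad2 (28636), Isl1 (967), Oxt (397), Slc32a1 (12126) and Tlx3 (1.05). StCo replicate 2 was lowest for Adcy1 (19384), Aldh3a1 (40.95), Atp2a3 (174) and Neurod6 (1422). StCo replicate 3 was highest for Atxn1 (5887) and Lmx1a (0.914).

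The region difference differed between the lines for 12 of the genes named. For the 5 genes shown by line, the interaction log2 value (the region difference of Co minus that of Hi) was Krt25 5.004, Vdr 2.93, Cd300lf -3.06, Ms4a3 3.16 and Aldh3a1 -3.07. Npy had log2(fold change) values of -4.39 in Co and -3.03 in Hi (interaction -1.35, adjusted P-value 0.016). Cbln1 had log2(fold change) values of 6.80 in Co and 6.00 in Hi (interaction 0.80, adjusted P-value 0.034). Irx3 had log2(fold change) values of 7.17 in Co and 5.08 in Hi (interaction 2.09, adjusted P-value 0.0042). Slc17a8 had log2(fold change) values of -5.04 in Co and -6.87 in Hi (interaction 1.83, adjusted P-value 0.016, or 0.11 with the replicate number as a block). Pde9a had log2(fold change) values of 1.03 in Co and 1.68 in Hi (interaction -0.66, adjusted P-value 0.025, or 0.093 with the replicate number as a block). Hpcal1 had log2(fold change) values of 2.11 in Co and 2.77 in Hi (interaction -0.66, adjusted P-value 0.026, or 0.072 with the replicate number as a block). Col5a2 had log2(fold change) values of 0.16 in Co and -1.45 in Hi (interaction 1.61, adjusted P-value 0.007). For Npy the CeHi samples were above the CeCo samples, and for Irx3 the StHi samples were above the StCo samples, while the other region of each gene overlapped between the lines.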

How the results depend on the processing

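Of 22 alternatives, none moved the number of genes called in either direction by over 1.5 times. Without a filter on low values 6665 genes were higher in Ce and 6491 in St, after quantile scaling, which moved the median log2(fold change) of all genes from 0.02 to 0.10, the numbers were 6585 and 4954, with edgeR 5769 and 5617, and with DESeq2 5730 and 5724. Leaving out 1 Co sample gave 5606 to 5748 genes higher in Ce and 5364 to 5483 in St, and 1526 to 1608 and 2239 to 2280 of these were over 1 on the log2 scale. A test against a log2 value of 1 gave 1040 and 1739 genes, and 12 named genes whose estimate was over 1 did not pass it. The number of genes that differed between the lines was the least stable, with 184 under sample quality weights, 53 with the replicate number as a block and 277 with DESeq2 (chosen after seeing the data), against 80, and 49 to 123 when 1 Co sample was left out; edgeR gave 100 and the fit without CeHi replicate 3 gave 93, both also chosen after seeing the data. The replicate block changed no other call named in the text, apart from those given beside their results.

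Of 2790 counts of list members under the alternatives 26 moved by over 1.5 times, most of them counts of 5 or fewer. Changes of sign were found in genes that were not called. After quantile scaling Mbp was at 0.12. With the median of ratios Htt was at -0.0047, with sample quality weights at -0.0015 and with DESeq2 at -0.0048, and it spanned -0.013 to 0.037 when 1 sample was left out. Leaving out 1 sample gave -0.0040 to 0.067 for Dab1, -0.0013 to 0.75 for Fos, -0.028 to 0.092 for Gfap and -0.58 to 0.57 for Pomc. Gad1 did not pass the test after quantile scaling (-0.08). The causes were not tested. Levels at 3 fragments or fewer could not be told from 0 at this depth.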
